A study of Caenorhabditis elegans with 40 samples.

Results

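The polycystin genes lov-1 and pkd-2 and the genes named for being coexpressed with them, cwp-1, cwp-2, cwp-3, cwp-4 and cwp-5, were followed across larval and adult development of Caenorhabditis elegans in both sexes. These 7 genes were chosen by name, with earlier results of these data known. The study itself shows pkd-2 in these data among known markers of sex-specific features. Of the 7, 5 had a row among the 11933 genes of the table of UMI (unique molecular identifier) counts, and lov-1 and cwp-3 had none and were not analysed here. Of the 5 with a row, pkd-2, cwp-1 and cwp-5 had enough counts to be tested with 8110 genes in all, while cwp-2 and cwp-4 stayed below the low-count filter and are described from their counts.

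RNA of whole animals was sequenced from the 3′ end in 4 biological repeats of each sex at each of 5 stages, giving 40 libraries in 10 groups. The stages were the larval stages L1 to L4 and the young adult (YA). All animals were grown at 25 °C. Hermaphrodites were wild-type N2 and males dpy-28(y1);him-8(e1489). In this genotype a temperature-sensitive mutation of the dosage compensation gene dpy-28 kills most XX animals and him-8 raises the share of XO males. The study also let L1 larvae crawl to food and cut away the immobile hermaphrodites left behind, which brought males to more than 98%. Every male library carries both mutations and no hermaphrodite library carries either, so the effects of sex and of strain cannot be told apart. With RNA of whole animals, more cells of a type and more RNA per cell cannot be told apart either. Libraries held between 1724365 and 14129759 UMIs with a median of 5616412, and the 4 L1 male libraries were shallow, at 1724365 to 3812947.

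LOV-1 is a polycystin related to human polycystin-1, and PKD-2 is a TRP-family cation channel related to human polycystin-2. Both proteins sit in the cilia of male-specific sensory neurons, the CEM neurons of the head and the ray and hook neurons of the tail, and males that lack them respond poorly to contact with a mate and fail to locate its vulva. The CEM neurons die in hermaphrodite embryos and the ray and hook neurons are made in the developing male tail. The cwp genes were found because the same neurons express them, and the functions of most of their products are less well known.

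By the Ensembl annotation of WBcel235, the build the study aligned to, all 7 genes are protein-coding. The gene pkd-2 lies on the minus strand of chromosome IV, from 15227814 to 15234993. The genes cwp-1, cwp-2 and cwp-3 sit side by side on chromosome V. There cwp-1 (4840617 to 4841279) and cwp-2 (4841935 to 4842644) are on the minus strand with 655 bases between them, and cwp-3 (4842836 to 4843845) begins 191 bases further on the plus strand. The gene cwp-4 is 209789 bases away on the same chromosome, from 5053635 to 5056474 on the plus strand, and cwp-5 is on the minus strand of chromosome X, from 13182114 to 13189961. The gene lov-1 spans 10109100 to 10121825 on the minus strand of chromosome II.

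Levels are given in CPM, the UMI count of a gene scaled to a common library total of 1e+06 UMIs. The 5 genes fell into different time courses. Counts of pkd-2, cwp-1 and cwp-2 came almost wholly from L4 and YA males, which held 98.3% of the 545 counts of pkd-2, 94.7% of the 1968 counts of cwp-1 and 82.1% of the 39 counts of cwp-2. By contrast, cwp-5 and cwp-4 had most of their counts at L1, with 70.9% of 158 counts and 58.8% of 34 counts there. All L1 libraries of both sexes had counts of cwp-5, whereas 18 of the 20 L1 counts of cwp-4 were in hermaphrodites. These shares are of raw counts and move with library depth. Tags of the 3′ end were counted once per molecule, and the counts carry no scaling by length. Levels are compared here within a gene, apart from sums over gene lists, the share of pkd-2 beside cwp-1 and levels scaled to pan-neuronal genes.

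**Figure D1:**
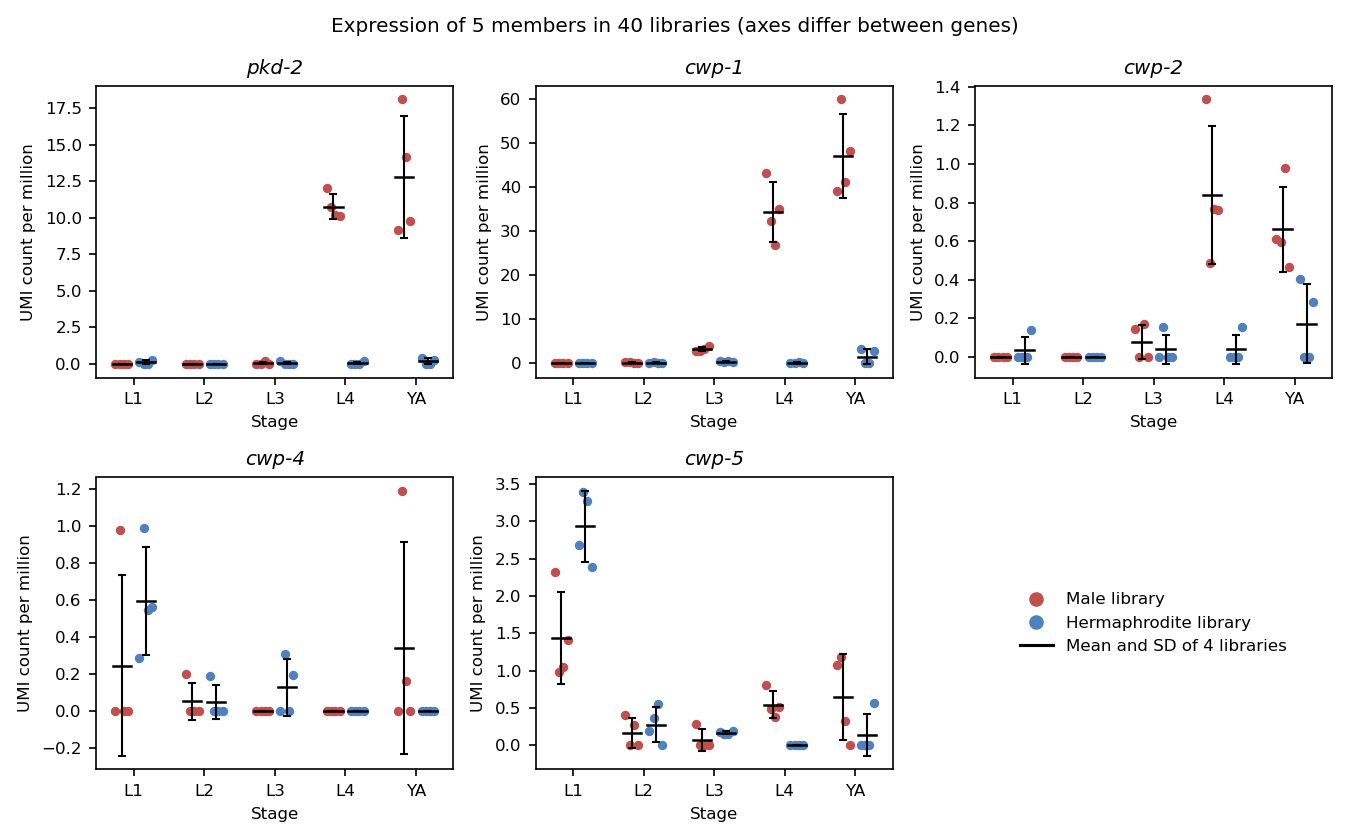
Level in CPM (vertical axes, a separate scale for each gene) of the 5 genes in each of the 40 libraries by stage, with males in red, hermaphrodites in blue, and the mean and SD of 4 libraries in black. pkd-2 and cwp-1 stand out in L4 and YA males, cwp-1 already lies above the hermaphrodites in L3 males, and cwp-5 is highest at L1.

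In males, pkd-2, the channel subunit of the polycystin pair, was at or near 0 through L3 and present in every library of L4 and YA. Its counts in the 4 L4 male libraries were 45, 66, 53 and 40, and in the 4 YA male libraries 60, 122, 87 and 63. No L1 or L2 male library had a count, which allows up to 0.269 CPM at L1 and 0.142 CPM at L2 (3 counts over the 4 libraries), and the 4 L3 male libraries held 1 count. Hermaphrodites had 4 counts at L1, none at L2, a single count in each of L3 and L4, and 2 at YA. The male and hermaphrodite libraries did not overlap at L4 or at YA, and nowhere else did pkd-2 reach 1 CPM. All male libraries lay above all hermaphrodite libraries for 23.1% of all genes tested at L4 and for 27.1% at YA.

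The mean level of pkd-2 was 10.8 ± 0.875 CPM (SD, n = 4) in L4 males and 12.8 ± 4.19 CPM in YA males, against 0.0385 ± 0.0770 and 0.172 ± 0.204 CPM in hermaphrodites. The ratio of male to hermaphrodite CPM was 237 at L4 (95% counting interval 42.1 to 9411) and 113 at YA (31 to 934). These intervals, and the limits set by counts of 0, cover counting error only. In the edgeR model of all 40 libraries, a gene was called when its Benjamini-Hochberg adjusted p was at most 0.05, its log2 fold change was at least 1 in size and its mean normalized count was at least 5. Under that rule pkd-2 was called male-enriched at L4 (log2 fold change 7.40, SE 0.66, adjusted p = 3.25e-10) and at YA (6.23, SE 0.61, adjusted p = 6.71e-10). A fitted fold change against a group with 1 or 2 counts depends on the prior count, and without L4 hermaphrodite repeat 4, the library with the count, the value at L4 was 9.13.

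The gene cwp-1 showed the same late rise in males and began earlier. Its counts in the 4 L3 male libraries were 20, 11, 19 and 21, against 3, 2, 3 and 1 in L3 hermaphrodites. They were 162, 199, 140 and 138 in L4 males and 256, 404, 253 and 311 in YA males, whereas the L4 hermaphrodite libraries had 0, 0, 2 and 0. The 4 male libraries lay above all 4 hermaphrodite libraries at L3, L4 and YA, as they did for 19.3%, 23.1% and 27.1% of all genes tested. At L1 and L2 no library of either sex had more than 1 count.

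For cwp-1, the mean rose from 0.108 ± 0.125 CPM in L2 males to 3.17 ± 0.473 in L3, 34.4 ± 6.82 in L4 and 47.1 ± 9.45 CPM in YA males (SD, n = 4 each). The male to hermaphrodite ratio was 8.52 at L3 (95% counting interval 4.25 to 19.4), 371 at L4 (102 to 3073) and 46.2 at YA (29.1 to 78.2). The model called cwp-1 male-enriched at L3 (log2 fold change 2.94, SE 0.58, adjusted p = 0.000291), L4 (8.31, SE 0.64, adjusted p = 8.46e-13) and YA (5.11, SE 0.48, adjusted p = 4.00e-11). Without L4 hermaphrodite repeat 3, which held both counts of that group, the value at L4 was 10.80.

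Of the 3 genes tested, 0 were called male-enriched at L1 and L2, 1 at L3, and 2 at L4 and at YA. Of all 8110 genes tested, the share called male-enriched was 3.33% for L1, 0.493% for L2, 7.68% for L3, 14.0% for L4 and 22.5% for YA. None of the 3 was called hermaphrodite-enriched, where 2.95% of all genes were at L1, 14.3% at L4 and 22.1% at YA. The filters bear on these counts. The gene pkd-2 had enough counts to be tested only through the male libraries of L4 and YA, and cwp-1 only through those of L3 to YA, in which they are high. In the same way, cwp-5 had enough counts to be tested only through its L1 libraries, where it is highest. With a mean normalized count of 2.90, under the minimum of 5, cwp-5 could not be called at any stage. The counts of called genes are therefore descriptions and no test of the 3 genes against all genes. At L1 and L2 the unadjusted p was above 0.05 for all 3 genes as well, and DESeq2 also called none. The sex difference changed with stage for all 3 genes by the F test of the 4 sex-by-stage terms (adjusted p = 0.000176 for pkd-2, 0.000203 for cwp-1 and 0.00429 for cwp-5), as it did for 53.1% of all genes tested.

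**Figure D2:**
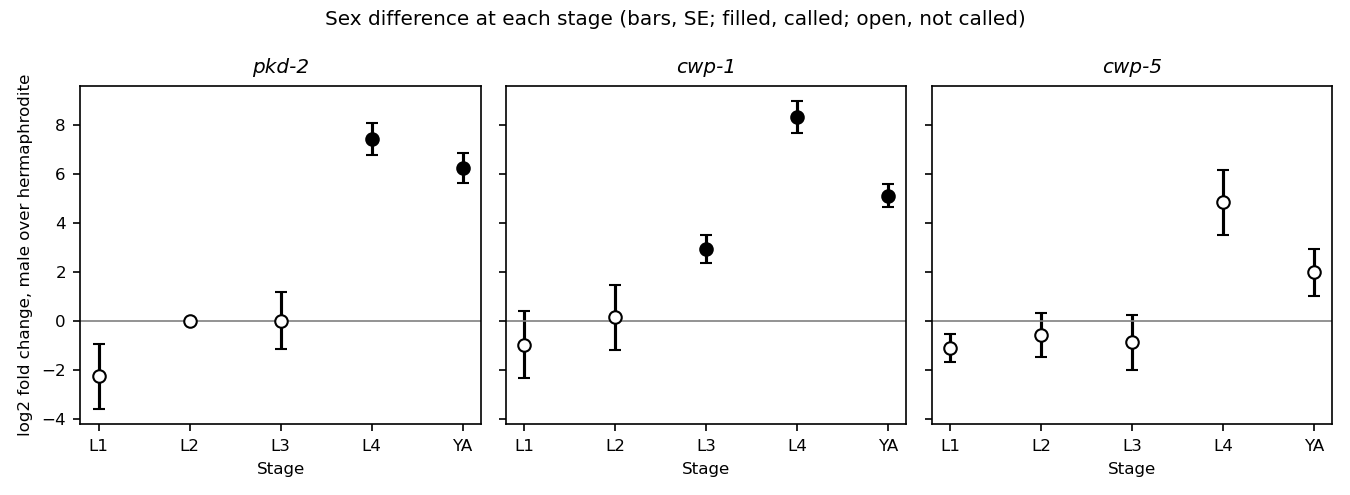
Fitted log2 fold change of males over hermaphrodites (vertical axis) at each stage for the 3 tested genes, with the SE as bars, filled where the gene was called and open where it was not. pkd-2 is called at L4 (7.40) and YA (6.23), cwp-1 from L3 on (2.94, 8.31 and 5.11), and cwp-5 at no stage.

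Between successive stages in males, cwp-1 rose from L2 to L3 (log2 fold change 4.88, SE 0.74, adjusted p = 2.68e-06) and both cwp-1 (3.54, SE 0.41, adjusted p = 9.91e-09) and pkd-2 (7.48, SE 0.65, adjusted p = 1.12e-10) rose from L3 to L4. Those are 1 and 2 of the 3 genes tested, where 11.3% and 15.9% of all genes were called higher at the later stage. The filters limit these counts in the same way. From L4 to YA, where 10.1% of all genes were called higher, neither gene passed the test, with log2 fold changes of 0.34 (SE 0.35, adjusted p = 0.509) for cwp-1 and 0.12 (SE 0.35, adjusted p = 0.849) for pkd-2. YA male repeat 2 was the highest library for both genes, and without it the value for pkd-2 was -0.038. Relative to 1000 summed UMIs of 18 pan-neuronal genes, a scale added after the data were seen, pkd-2 went from 13.1 ± 1.09 to 15.5 ± 4.27 (exact two-sided permutation p = 0.400) and cwp-1 from 41.9 ± 8.22 to 57.5 ± 8.88 (exact p = 0.0857). The smallest p that 4 against 4 libraries can give is 0.0286.

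The onset of both genes in males was also described by the share of pkd-2 in the summed counts of pkd-2 and cwp-1 in males, a measure chosen after the counts were seen. At L3 it was 1 of 72 counts, or 1.39% (exact 95% binomial interval 0.0352 to 7.50%). At L4 it was 204 of 843 counts, or 24.2% (21.3 to 27.2%), and at YA 332 of 1556 counts, or 21.3% (19.3 to 23.5%). Had the L4 ratio held at L3, 22.7 counts of pkd-2 would go with the 71 of cwp-1. By library the share was 1.25 ± 2.50% at L3 and 24.1 ± 2.59% at L4, with no overlap, whereas L4 and YA (21.2 ± 3.96%) overlapped. Since the measure was chosen for this difference, it is a description with no test.

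**Figure D3:**
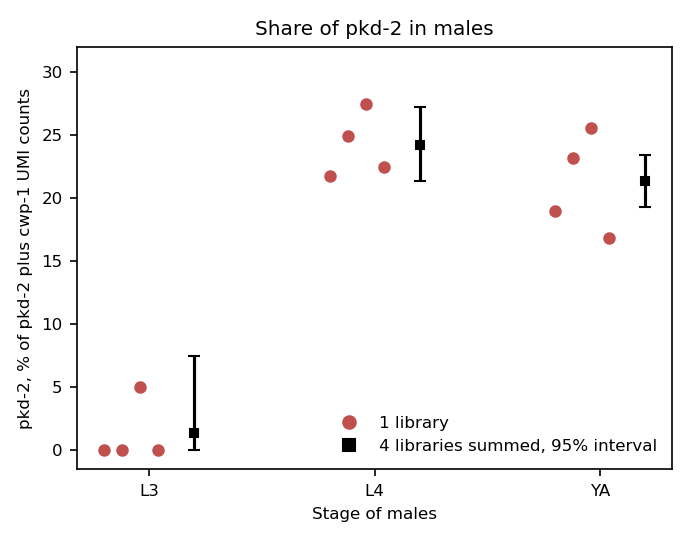
Share of pkd-2 in the summed UMI counts of pkd-2 and cwp-1 (vertical axis, percent) in males at L3, L4 and YA, with 1 red point per library and the 4 libraries summed as a black square with its exact 95% interval. The share is 1.39% at L3, 24.2% at L4 and 21.3% at YA.

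The gene next to cwp-1, cwp-2, also had most of its counts in late males, and had few counts in all. Its counts were 5, 3, 4 and 3 in L4 males and 4, 4, 6 and 3 in YA males, with 0, 0, 0 and 1 in L4 hermaphrodites and 1, 0, 0 and 1 in YA hermaphrodites. No male library of L1 or L2 had a count, and the L3 male libraries had 1, 0, 1 and 0. Male and hermaphrodite libraries did not overlap in CPM at L4 (0.838 ± 0.356 against 0.0385 ± 0.0770) or at YA (0.662 ± 0.220 against 0.172 ± 0.204), each with an exact two-sided permutation p of 0.0286. That separation held for 23.1% of all tested genes at L4 and for 27.1% at YA. The count ratio was 17.4 at L4 (95% counting interval 2.68 to 734) and 5.77 at YA (1.37 to 51.5).

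The X-linked gene cwp-5 had its highest level at L1, in both sexes, and a second, lower level in late males. Its counts at L1 were 38, 24, 18 and 17 in hermaphrodites and 4, 2, 4 and 5 in males, from male libraries that were shallower. Scaled to depth, these were 2.93 ± 0.476 CPM in hermaphrodites and 1.44 ± 0.617 CPM in males (SD, n = 4), and the 4 hermaphrodite libraries lay above all 4 male libraries, as they did for 11% of all genes tested. The count ratio of males to hermaphrodites was 0.470 (95% counting interval 0.253 to 0.813). In the edgeR model the difference did not pass (log2 fold change -1.10, SE 0.57, adjusted p = 0.249, and -1.08 with adjusted p = 0.331 with the repeats paired). The median at L1 was -0.14 over all 8110 genes, -0.16 over the 1065 X-linked genes tested and -0.56 over 13 tested pan-neuronal genes. The summed level of 18 pan-neuronal genes was 2468 to 2551 CPM in L1 males and 3293 to 4716 CPM in L1 hermaphrodites. The part of neuronal content in the cwp-5 difference was not tested.

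After L1, cwp-5 was low in both sexes. From L1 to L2 its log2 fold change was -2.75 in hermaphrodites (SE 0.63, adjusted p = 0.000507) and -2.22 in males (SE 0.81, adjusted p = 0.0372), but its mean normalized count of 2.90 lies under the minimum of 5, so that it was not called. Since cwp-5 had enough counts to be tested only through its L1 libraries, its fall from L1 and its sex difference at L1 are descriptions. Of all genes tested, 15.8% in hermaphrodites and 8.29% in males were called lower at L2 than at L1. In L4 males every library had counts (3, 3, 2 and 2), while all 4 L4 hermaphrodite libraries were at 0, which puts the male level 3.87-fold above the level of 3 counts over those 4 libraries, and the 95% counting interval of the ratio begins at 2.61. The adjusted p of that difference was 0.00409, and the mean count minimum again kept it from being called. In YA males the counts were 7, 8, 2 and 0, against 0, 0, 0 and 2 in hermaphrodites, and the groups overlapped (log2 fold change 1.99, adjusted p = 0.0761). Without YA hermaphrodite repeat 4, which held both counts, the value was 5.0 (adjusted p = 0.0106), still under the mean count minimum.

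Counts of cwp-4 were few and went with neither late male stage as a whole. All 4 L1 hermaphrodite libraries had counts (4, 7, 3 and 4), whereas L1 males had 0, 2, 0 and 0. At L4 all 8 libraries of both sexes were at 0, which allows up to 0.158 CPM in males and 0.136 CPM in hermaphrodites. YA males had 0, 8, 1 and 0, so that 8 of their 9 counts came from repeat 2, which was also the highest YA male library for pkd-2 and cwp-1. The sexes overlapped at L1 in CPM (0.594 ± 0.292 in hermaphrodites and 0.244 ± 0.488 in males). The last exon of cwp-4 shares 97 bases with the gene mlk-1 on the opposite strand, which had 209 counts in L1 hermaphrodites and 61 in L4 males, and the sources used here do not say how strand was used in counting.

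Hermaphrodite counts of cwp-1 at YA came from particular libraries. The 4 YA hermaphrodite libraries had 8, 0, 0 and 10 counts of cwp-1, so that all of them lay in repeats 1 and 4. The counts of pkd-2 and of cwp-2 were 1, 0, 0 and 1 each, in the same libraries. In those repeats cwp-1 stood at 6.84% and 6.0% of its mean level in YA males. The study names pkd-2 and 5 other genes as male markers. Among the 5, clec-207 of the vas deferens stood there at 6.58% and 6.18% and R01E6.5 at 7.41% and 7.31%. Y39B6A.9 stood at 5.05% and 4.44% and K09C8.2 of the seminal vesicle and vas deferens at 10.5% and 5.38%, while ram-5 was at 0 in all 4 libraries. The mean of ram-5 in YA males was only 4.77 CPM, and repeats 1 and 4 held 2479432 and 3533092 UMIs. Its counts of 0 therefore cannot set ram-5 apart from the other markers. In repeats 2 and 3 none of these 5 markers passed 1.46%.

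The TMM scaling factors also differed, at 1.03 in repeats 1 and 4 and 0.595 and 0.534 in repeats 2 and 3. The summed level of the 5 male markers was 70.6 and 61.7 CPM in YA hermaphrodite repeats 1 and 4 and 6.61 and 8.37 CPM in repeats 2 and 3, against 1033 to 1285 CPM in YA males. Summed major sperm protein genes, which both sexes express while they make sperm, were 3593 and 3487 CPM in repeats 1 and 4 and 387 and 514 CPM in repeats 2 and 3. The source of these counts was not tested. In hermaphrodites cwp-1 was called higher at YA than at L4 (log2 fold change 3.54, SE 0.90, adjusted p = 0.00113), as were 21.2% of all genes tested. Without repeats 1 and 4 that value was -2.53 (adjusted p = 0.366), since the remaining 2 libraries had no count. The male enrichment at YA remained called without them, with fitted log2 fold changes of 11.17 for cwp-1 and 9.28 for pkd-2 that are set by the prior count.

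**Figure D4:**
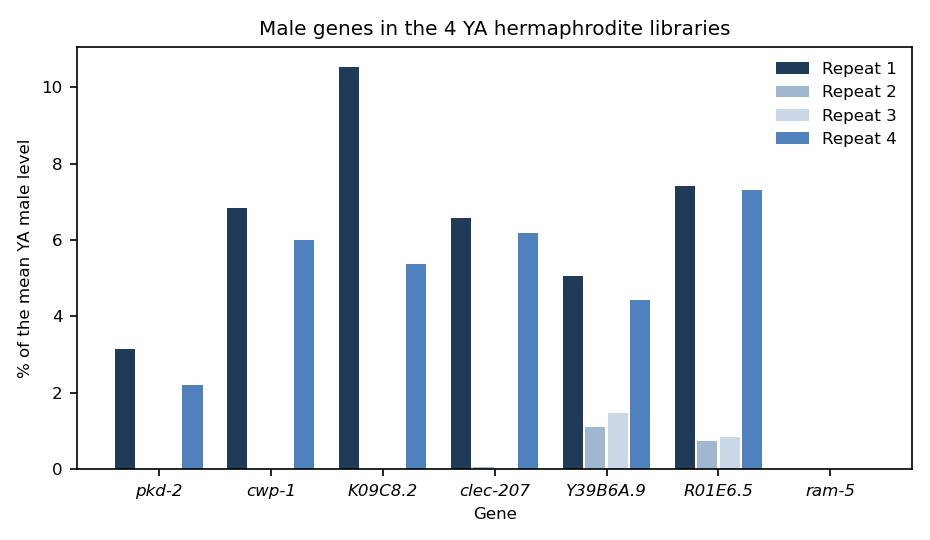
Level of pkd-2, cwp-1 and 5 male marker genes in each of the 4 YA hermaphrodite libraries (bars) as a percent of the mean CPM in YA males (vertical axis). Repeats 1 and 4 carry cwp-1 at 6.84% and 6.0%, and repeats 2 and 3 hold none.

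Genes of ciliary assembly, which build the compartment in which the polycystins sit, were higher in males at L4. Of 47 genes listed for intraflagellar transport and cilium structure, 27 had a row and 19 were tested, and 15 of the 19 were called male-enriched at L4 and none hermaphrodite-enriched, where 14.0% of all genes were called male-enriched. Their median log2 fold change was 1.40 at L4 beside 0.05 over all genes. The count was 12 to 14 with 1 library left out, 7 under glmTreat, a stricter test against the minimum fold change, and 7 of 14 tested with counts thinned to the smallest library. At L3 1 of the 19 was called male-enriched (median 0.63), beside 7.68% of all genes, and at YA 7 were (median 0.78), beside 22.5%. The count at YA was 4 without YA male repeat 4 and 4 without YA hermaphrodite repeat 1. The 4 with the smallest p were osm-5, an intraflagellar transport subunit (log2 fold change 2.17 at L4, SE 0.30, adjusted p = 4.04e-07), dyf-2, another subunit (2.84, SE 0.46, adjusted p = 5.76e-06), the transition zone gene mks-5 (2.48, SE 0.43, adjusted p = 1.64e-05) and the beta-tubulin gene tbb-4 (1.73, SE 0.28, adjusted p = 7.60e-06).

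Unlike pkd-2, the cilium genes were present in hermaphrodites too. For osm-5 the mean was 7.78 ± 1.59 CPM in L4 males and 1.7 ± 0.323 CPM in L4 hermaphrodites, and for tbb-4 15.5 ± 3.55 and 4.61 ± 1.22 CPM. The summed level of the 27 genes was 66.6 to 93.1 CPM in L4 males against 24.5 to 37.0 CPM in L4 hermaphrodites, and its highest values, 195 to 251 CPM, were in L1 hermaphrodites. Of 13 tested pan-neuronal genes, 2 were called male-enriched and 1 hermaphrodite-enriched at L4 (median 0.43), beside 14.0% and 14.3% of all genes. Of these, rab-3, the synaptic vesicle GTPase, had a log2 fold change of 2.24 (SE 0.18, adjusted p = 5.62e-13). The summed level of 18 pan-neuronal genes was 772 to 904 CPM in L4 males and 574 to 661 CPM in L4 hermaphrodites, with between 11 and 18 of the 18 detected in every library of the series. The part of neuronal content in the cilium result was not tested.

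**Figure D5:**
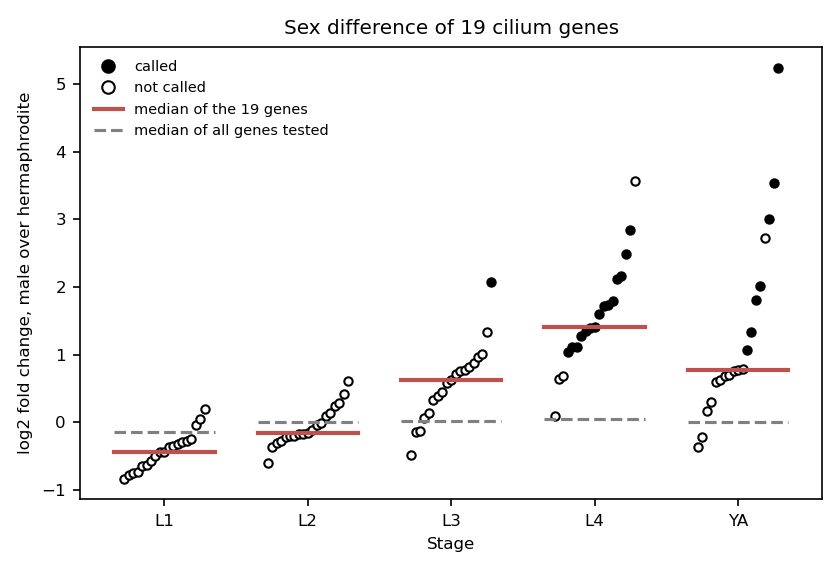
Fitted log2 fold change of males over hermaphrodites (vertical axis) of the 19 tested cilium genes at each stage, ordered by value within a stage, with called genes filled, their median in red and the median of all genes tested as a dashed line. At L4 15 of 19 are called and the median is 1.40, and at L1 none is called.

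Among regulators of male sensory neuron fate, all 12 listed genes had a row, 10 were tested and 5 were called male-enriched at L4 and 3 at L3 and at YA, beside 14.0%, 7.68% and 22.5% of all genes at these stages. The DM domain factor mab-3 was called at every stage, with a log2 fold change of 3.39 at L3 (SE 0.28, adjusted p = 1.93e-11) and 4.73 at L4 (SE 0.31, adjusted p = 2.67e-15). The Hox genes egl-5 (1.86 at L3, SE 0.39, adjusted p = 0.000524) and mab-5 (1.25 at L3, SE 0.27, adjusted p = 0.000801) were called from L3 on, and the DM domain gene dmd-3 at L4 (4.67, SE 0.68, adjusted p = 1.14e-06). The genes daf-19 and egl-46 were named after their values were seen. The RFX factor daf-19, a regulator of cilium genes, was called at L4 alone (1.14, SE 0.25, adjusted p = 0.000512), and egl-46, a zinc finger gene that acts in the hook neuron HOB, had 23, 18 and 3 counts in males at L3, L4 and YA against 2, 1 and 0 in hermaphrodites, but missed the mean count minimum. The level of egl-46 was highest at L1 in both sexes, at 2.58 ± 0.744 CPM in males and 1.83 ± 0.683 CPM in hermaphrodites.

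Of 19 other listed TRP channel genes, relatives of pkd-2, 10 had a row and 9 were tested, of which 3 were called male-enriched and 1 hermaphrodite-enriched at L4, and 1 each at YA. Of all genes tested, 14.0% and 14.3% were so called at L4 and 22.5% and 22.1% at YA. The mechanosensory channel gene trp-4 was called at L4 (log2 fold change 5.05, SE 0.66, adjusted p = 1.17e-07), with 3.56 ± 0.0735 CPM in L4 males and 0.0798 ± 0.0923 CPM in L4 hermaphrodites, and stood at 0.878 ± 0.557 CPM in YA males. The sperm channel gene spe-41 was called from L3 to YA, and trpl-2 was higher in L4 hermaphrodites (log2 fold change -2.18, SE 0.48, adjusted p = 0.000399). The lysosomal channel gene cup-5 was called hermaphrodite-enriched at YA (-1.64, SE 0.20, adjusted p = 4.57e-09).

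Of 16 listed genes tied to polycystin transport and signalling, 9 had a row and 8 were tested, with 1 called hermaphrodite-enriched at L4, beside 14.3% of all genes, and 1 male-enriched at YA, beside 22.5%. These were stam-1, an endosomal sorting gene that acts in removing polycystins from cilia (log2 fold change -1.42 at L4, SE 0.46, adjusted p = 0.0135), and tax-6, the calcineurin catalytic subunit (1.64 at YA, SE 0.31, adjusted p = 2.33e-05). The sexes overlapped for stam-1 at L4, at 1.79 to 5.33 CPM in males and 2.51 to 17.4 CPM in hermaphrodites. Fits with 1 library left out called 0 to 1 of the 8 hermaphrodite-enriched at L4. Of 6 listed genes of amine neurons, 3 had a row and were tested. At L4 2 were called male-enriched, beside 14.0% of all genes. These were the vesicular monoamine transporter cat-1 (2.84, SE 0.45, adjusted p = 3.89e-06) and the tyrosine hydroxylase cat-2 (2.81, SE 0.40, adjusted p = 8.08e-07). At YA all 3 were called male-enriched, with bas-1, the aromatic amino acid decarboxylase, beside 22.5% of all genes. Of 18 listed markers of amphid and other ciliated sensory neurons, 7 had a row and 5 were tested. Among these, gcy-23 was called male-enriched and odr-4 hermaphrodite-enriched at L4 and at YA, and daf-7 was male-enriched at YA (2.31, SE 0.29, adjusted p = 1.20e-08). Over all genes, the male-enriched and hermaphrodite-enriched shares were 14.0% and 14.3% at L4 and 22.5% and 22.1% at YA. With 1 library left out, 0 to 2 of the 5 were called male-enriched at L4 and 0 to 1 hermaphrodite-enriched at YA.

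Over the 40 libraries, log2 CPM of pkd-2 and cwp-1 had a Pearson r of 0.923, while cwp-5 had 0.216 with pkd-2 and 0.0712 with cwp-1. Genes outside the 7 had closer profiles. The closest to cwp-1 was K09C8.2, the marker of the seminal vesicle and vas deferens (r = 0.985), and the closest to pkd-2 was Y43F8B.19 (r = 0.983). These are descriptions, since the libraries fall into 10 groups and share their depth. The 10 genes whose profile was most like the mean of the 3 tested genes had r between 0.955 and 0.968. They were M176.10, Y43F8B.19, F54D12.9, F46A8.4, F49F1.3, F07G6.8, F49F1.15, C05B5.11, the C-type lectin gene clec-197 and the neuropeptide gene flp-23. Among them flp-23 had 1.22 CPM in L3 males, 14.3 in L4 males and 13 in YA males, and 0.121 CPM in L4 hermaphrodites, whereas M176.10 had 0.169, 7.49 and 17.9 CPM in L3, L4 and YA males.

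The nearest annotated genes with a row were read beside the polycystin and cwp genes. The metalloprotease gene nas-9, 603 bases from cwp-1, had 42.8 CPM in L4 males and 22.5 CPM in L4 hermaphrodites (log2 fold change 0.91, SE 0.26, adjusted p = 0.00460) and was called male-enriched only at YA (1.18, SE 0.25, adjusted p = 0.000127). C37H5.3, which lies beyond cwp-2 and cwp-3, was called at no stage. The neighbours of pkd-2, Y40H7A.11 and lgc-52, and of cwp-5, nlp-3 and gpa-6, were below the low-count filter. Beside cwp-4, pqn-51 was hermaphrodite-enriched at YA (-1.88, SE 0.26, adjusted p = 8.56e-08) and Y58A7A.1 male-enriched at L4 (1.45, SE 0.59, adjusted p = 0.0452). Beside lov-1, ZK945.7 was called male-enriched at YA (1.76, SE 0.60, adjusted p = 0.0135) and phg-1 at no stage.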

How the data were processed

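RNA of whole animals was prepared for bulk MARS-seq, which tags the 3′ end of each molecule with a UMI. The deposited counts are whole numbers of UMIs per gene, which the authors made with their UTAP pipeline, trimming with cutadapt, aligning with STAR 2.4.2a to WBcel235 and counting with HTSeq after marking UMI duplicates. Which annotation release they used is not stated in the sources. The table also held 120 normalized, batch-corrected or variance-stabilized columns and 315 columns of the authors' own comparisons (mean, fold change, p and call for pairs of groups), none of which was used.

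The count model was fitted with edgeR 4.0.16 in R 4.3.3: filterByExpr (minimum count 10, minimum total 15) kept 8110 of 11933 genes, TMM factors were applied, and a quasi-likelihood model of 10 group means over 40 libraries was tested with Benjamini-Hochberg adjustment over all genes. Calls needed adjusted p of at most 0.05, log2 fold change of at least 1 in size and a mean normalized count of at least 5. CPM was computed on the library total, and log2 CPM used a prior count of 2. Library totals ran from 1724365 to 14129759. Alternatives included DESeq2 1.42.0, thinned counts, other filters and leaving out libraries. No 2 repeats agreed within sampling noise (lowest chi-square per degree of freedom 2.08).

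Repeat numbers are shared between groups. At L1, libraries of the 2 sexes with the same number had r above 0.1 in all 4 repeats (0.587, 0.136, 0.371 and 0.273) and were taken as paired. No other comparison met that in all 4 repeats. Even at L1, repeat 2 had a higher r (0.348) with a library of another number. The main model had no term for the pairs, and a replicate block was fitted as an alternative. Repeats are named biological by the study, and p-values measure the spread between these libraries.

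The 7 genes and the other gene lists were chosen with earlier results of these data known. Named genes were the 7; up to 4 called genes per list with the smallest p at L4 or YA; the 10 genes most correlated with the mean of the tested genes among them; and the nearest genes on either side. Sequences were not used here, so whether cwp-1 and cwp-2 share reads was not tested.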

Additional observations from a re-analysis of the deposited data

Results flagged for a closer look

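The sex difference depended on stage for each of the 3 tested genes by the edgeR test of the sex-by-stage terms, with adjusted p = 0.000176 for pkd-2, 0.000203 for cwp-1 and 0.00429 for cwp-5. By the same test it did so for 53.1% of all genes tested. The 3 genes had enough counts to be tested only through groups in which they are high, so this is a description. For pkd-2 and cwp-1 the late stages were male-enriched and the early stages were near 0 in both sexes. For cwp-5 the L1 libraries were higher in hermaphrodites and the L4 libraries higher in males.

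Among the 13 gene and group combinations in which a library had at least 5 counts, 1 library stood far from the other 3. This was YA male repeat 2 for cwp-4, with 8 counts against 0, 1 and 0, a gap of 0.863 of the whole range, above Dixon's 95% limit for 4 values. Chance flags about 1 in 20 such groups. The same library had the highest counts of pkd-2 (122) and cwp-1 (404) in that group, and its part in the result was not tested.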

How the results depend on the processing

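The calls of cwp-1 at L3, L4 and YA and its rises from L2 to L3 and L3 to L4 in males held under each alternative run. With counts thinned to the smallest library, pkd-2 kept its direction (7.37 at L4, 4.85 at YA and 7.37 from L3 to L4 in males, adjusted p at most 7.74e-07) but fell under the mean count minimum, so 1 gene was called in place of 2 in each, and 1 in place of 3 had a sex difference that changed with stage (adjusted p = 0.0528 for pkd-2, with cwp-5 not tested). Without the mean count minimum, or with it taken over the libraries compared, 1 gene in place of 0 was called between L1 and L2 in hermaphrodites (cwp-5), and without it also 1 in males. Without the minimum cwp-5 was also called male-enriched at L4 (4.83). Between L4 and YA in hermaphrodites 0 genes in place of 1 were called with each sex fitted alone, with the minimum taken over the libraries compared, and without YA repeats 1 and 4 (-2.53 for cwp-1). Leaving out 1 library at a time gave 0 to 1 calls between L3 and L4 in hermaphrodites (1 without L4 hermaphrodite repeat 3) and, from L4 to YA in males, -0.25 to 0.53 for cwp-5 and -0.038 to 0.34 for pkd-2, whose -0.038 was without YA male repeat 2. For cwp-5 it was -0.20 without YA male repeat 1 and -0.25 without repeat 2.

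With the replicate block within stage, the number of genes called male-enriched did not change at any stage, and the value of cwp-5 at L1 was -1.08 (adjusted p = 0.331). The block within sex changed no call either. Outside L1 the numbers were not taken to pair libraries, since in each comparison at least 1 of the 4 correlations was 0.1 or less.

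The count of 15 cilium genes called male-enriched at L4 was 15 with DESeq2 size factors and with DESeq2, 12 with the block, 9 of 11 tested with each stage alone, 7 of 14 with thinned counts and 7 with glmTreat. The 7 at YA ranged from 1 of 8 with each stage alone to 12 of 27 without the low-count filter, and was 4 without YA male repeat 4, without YA hermaphrodite repeat 1 and without YA hermaphrodite repeats 1 and 4 together. DESeq2 size factors moved the median over all genes from 0.05 to 0.21 at L4 and from -0.00066 to 0.18 at YA, and the called genes from 1139 male-enriched and 1158 hermaphrodite-enriched to 1410 and 927 at L4 and from 270 and 239 to 320 and 161 at L1. L1 males had the fewest UMIs as a group, which limits what low counts there show.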
